A study of Mus musculus with 32 samples.

Results

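The ELOVL fatty acid elongases are the 7 genes Elovl1 to Elovl7. They were followed in brown adipose tissue of mice lacking either both isoforms of the glucose-responsive transcription factor ChREBP or its β isoform alone. Members were all array probes that carry one of these gene names and that also appear in the deposited table of normalized values. Of 11 probes with such a name, 9 met this rule, out of 37304 probes in the table, and they covered all 7 genes out of 24523 gene names analysed.

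ELOVL enzymes are membrane proteins of the endoplasmic reticulum that condense malonyl-CoA with an acyl-CoA, the rate-limiting step of each round of fatty acid chain lengthening. Family members differ in the chains they accept. ELOVL6 extends the saturated chains made by fatty acid synthase, and also monounsaturated chains. ELOVL2 and ELOVL5 act on polyunsaturated chains, ELOVL1, ELOVL3 and ELOVL7 on saturated and monounsaturated chains, and ELOVL4 makes very long chains. In brown fat, Elovl3 is known for its induction by cold and Elovl6 for its link to de novo lipogenesis, the synthesis of fatty acids from glucose.

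Total RNA of interscapular brown adipose tissue from C57BL6/J male mice was labelled with Cy3 and hybridised to 32 single-colour Agilent arrays, 8 per group. The 4 groups were total ChREBP KO mice (Mlxipl-null, both isoforms absent), WT littermates of that line, ChREBPβ KO mice (exon 1b of Mlxipl deleted by CRISPR/Cas9) and WT littermates of that line. All 4 groups were on a regular diet and went through a 24 h fast and an 18 h refeeding with food and water holding 20% glucose before sampling. Both deletions were present in every tissue, the founder line behind the ChREBPβ KO arrays was not stated, and ages were not given in the sources used here. The labels number the arrays but name no animals, so p values measure the spread between these arrays.

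Levels below are log2 normalized intensities, differences are KO minus WT on the log2 scale, and adjusted p values are limma's, corrected by Benjamini-Hochberg across every probe of the comparison, with a call at an adjusted p under 0.05. Levels of different probes cannot be set against each other, because brightness also depends on the probe's sequence. On each array 64.4% to 71.1% of spots stood well above background, no spot was saturated, and the brown fat gene Ucp1 lay between 18.2 and 18.6 on every array. Those Ucp1 values are near the top of the normalized scale, which limits how far they can rise. Skeletal muscle RNA differed between the lines. The mean of 8 muscle markers was 12.6 to 16.4 in the total-line WT arrays and 14.6 to 16.03 in total ChREBP KO, against 5.66 to 12.2 and 5.64 to 11.8 in the WT and KO arrays of the ChREBPβ line. Of 3 Mlxipl probes, 2 were lower in each KO than in its own WT group with no overlap of arrays, and the remaining probe differed by 0.14 in total ChREBP KO (adjusted p = 0.068) and by -0.08 in ChREBPβ KO (adjusted p = 0.625).

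The probes that carry the results are 60 bases long, and their first 30 bases are shown so that the measured transcripts can be found. Positions are those in the array files, build mm9, and exon or UTR annotation of that build was not used here.
Elovl6, chr3:129337756-129337815: atttgaccaaatcagaagagagagagaacc
Elovl3, chr19:46209325-46209384: cctccgtggcactaagggtatgggagaatg
Elovl5 brighter probe, chr9:77832205-77832264: ctcaatacaaaaattataacatttgatagt
Elovl5 dimmer probe, chr9:77827724-77827983: tggtggaaaaagtacatcactcaagggcag
The Elovl6, Elovl3 and both Elovl5 probes were well above background on all 32 arrays. The same held for Elovl4 and both Elovl1 probes.

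Without both ChREBP isoforms, Elovl6, Elovl3 and Elovl5 fell and Elovl4 rose. These 4 called genes of 7 stood against a background of 44.1% of all genes called in this comparison, 21.1% lower and 22.9% higher. The median difference of the 7 genes was -0.21, beside 0.01 over all genes. Without ChREBPβ alone, 1 of the 7 genes was called, Elovl5, which fell, against 2.7% of all genes called either way and 1.33% called lower. Here the median of the 7 was -0.11, beside -0.003 over all genes, and 2 of them had an unadjusted p under 0.05. The share of all genes under that unadjusted threshold is not given here. Such counts, here and for the lists below, therefore have no background to be read against. The KO effects themselves differed for 3 of the 7 genes, Elovl3, Elovl5 and Elovl6, against 25.2% of all genes. In whole tissue, fewer cells of a type and less RNA per cell cannot be told apart.

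Elovl6, the elongase of chains made by fatty acid synthase, was on separate levels in total ChREBP KO and its WT group. Its level ran from 15.85 to 16.11 with a median of 16.004 in the total-line WT arrays and from 13.15 to 13.94 with a median of 13.57 in total ChREBP KO. All 8 KO arrays lay below all 8 WT arrays, as was the case for 8.42% of all genes. The difference was -2.47 ± 0.11 (SE), which left 18.1% of the WT level (limma adjusted p = 3.81e-18). In the ChREBPβ line Elovl6 ran from 15.62 to 16.19 with a median of 15.82 in WT and from 15.09 to 16.04 with a median of 15.86 in KO. Those groups overlapped, with 4 KO arrays below and 4 above the WT mean, and the difference was -0.11 ± 0.11 (adjusted p = 0.776, 95% interval -0.33 to 0.12). The interval excludes a change of the size seen in total ChREBP KO, and the KO effects differed by 2.36 ± 0.16 (adjusted p = 3.72e-13). By PCR, the paper reports lower Elovl6 and Fasn in ChREBPβ-deficient brown fat at thermoneutrality, as at its standard housing temperature. That was a different assay from these arrays and in part different housing.

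Elovl3 showed the largest difference of the 7 genes in both KO comparisons, and also a wide spread. In the total line it ran from 13.62 to 14.68 with a median of 14.00 in WT and from 9.88 to 12.28 with a median of 10.81 in KO. All KO arrays again lay below all WT arrays. The difference was -3.16 ± 0.41, or 11.2% of the WT level (adjusted p = 1.27e-07). In the ChREBPβ line it ran from 11.06 to 14.87 with a median of 13.12 in WT and from 10.28 to 13.12 with a median of 12.06 in KO. Of the 8 KO arrays 7 lay below the WT mean and 6 within the WT range. The difference of -1.15 ± 0.41 did not pass the test over all probes (adjusted p = 0.144, unadjusted p = 0.00823, 95% interval -1.97 to -0.32). It did pass when WT replicate 5, the lowest WT array, was left out, at -1.41 and an adjusted p of 0.0303. A fixed slide block gave -0.54 (adjusted p = 0.809), and over the planned settings the adjusted p ran from 0.0909 to 0.809. The KO effects differed by 2.01 ± 0.57 (adjusted p = 0.00965).

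Elovl5 fell in both KO comparisons, by a smaller step in ChREBPβ KO. Its brighter probe ran from 12.81 to 13.60 with a median of 13.26 in the total-line WT arrays and from 11.63 to 12.29 with a median of 11.89 in total ChREBP KO. The groups did not overlap, and the difference of -1.29 ± 0.13 left 40.8% of the WT level (adjusted p = 5.17e-10). In the ChREBPβ line the same probe ran from 12.33 to 13.17 with a median of 12.44 in WT and from 11.84 to 12.47 with a median of 12.17 in KO. All 8 KO arrays were below the WT mean, and 1 of them was within the WT range. The difference was -0.48 ± 0.13, or 71.5% of the WT level (adjusted p = 0.0309). The KO effects differed by 0.81 ± 0.18 (adjusted p = 0.001).

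The Elovl5 call in ChREBPβ KO was close to the threshold. No Elovl gene is in the paper's list of genes regulated in ChREBPβ-deficient brown fat. With wash batch as a block the difference was -0.38 (adjusted p = 0.0832) and with slide as a block -0.25 (adjusted p = 0.548). It was also lost with the 2 groups of the ChREBPβ line fitted alone (adjusted p = 0.0895), with the mean of both Elovl5 probes (-0.37, adjusted p = 0.0554) and when any 1 of KO replicates 1, 4 and 8 or WT replicates 2, 6 and 8 was left out, at adjusted p values of 0.0553 to 0.0842.

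The dimmer Elovl5 probe, named in the files for a predicted transcript variant, moved the same way with smaller differences. It ran from 6.20 to 7.02 in the total-line WT arrays and from 5.45 to 5.98 in total ChREBP KO, without overlap. Its difference was -0.81 ± 0.10 (adjusted p = 1.04e-07). In ChREBPβ KO it was -0.25 ± 0.10 and was not called (adjusted p = 0.238), with 4 of 8 KO arrays within the WT range. The KO effects differed by 0.56 ± 0.15 (adjusted p = 0.00471). A further Elovl5 probe was well above background on 14 arrays and a further Elovl1 probe on 0, and neither is in the deposited table.

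**Figure D1:**
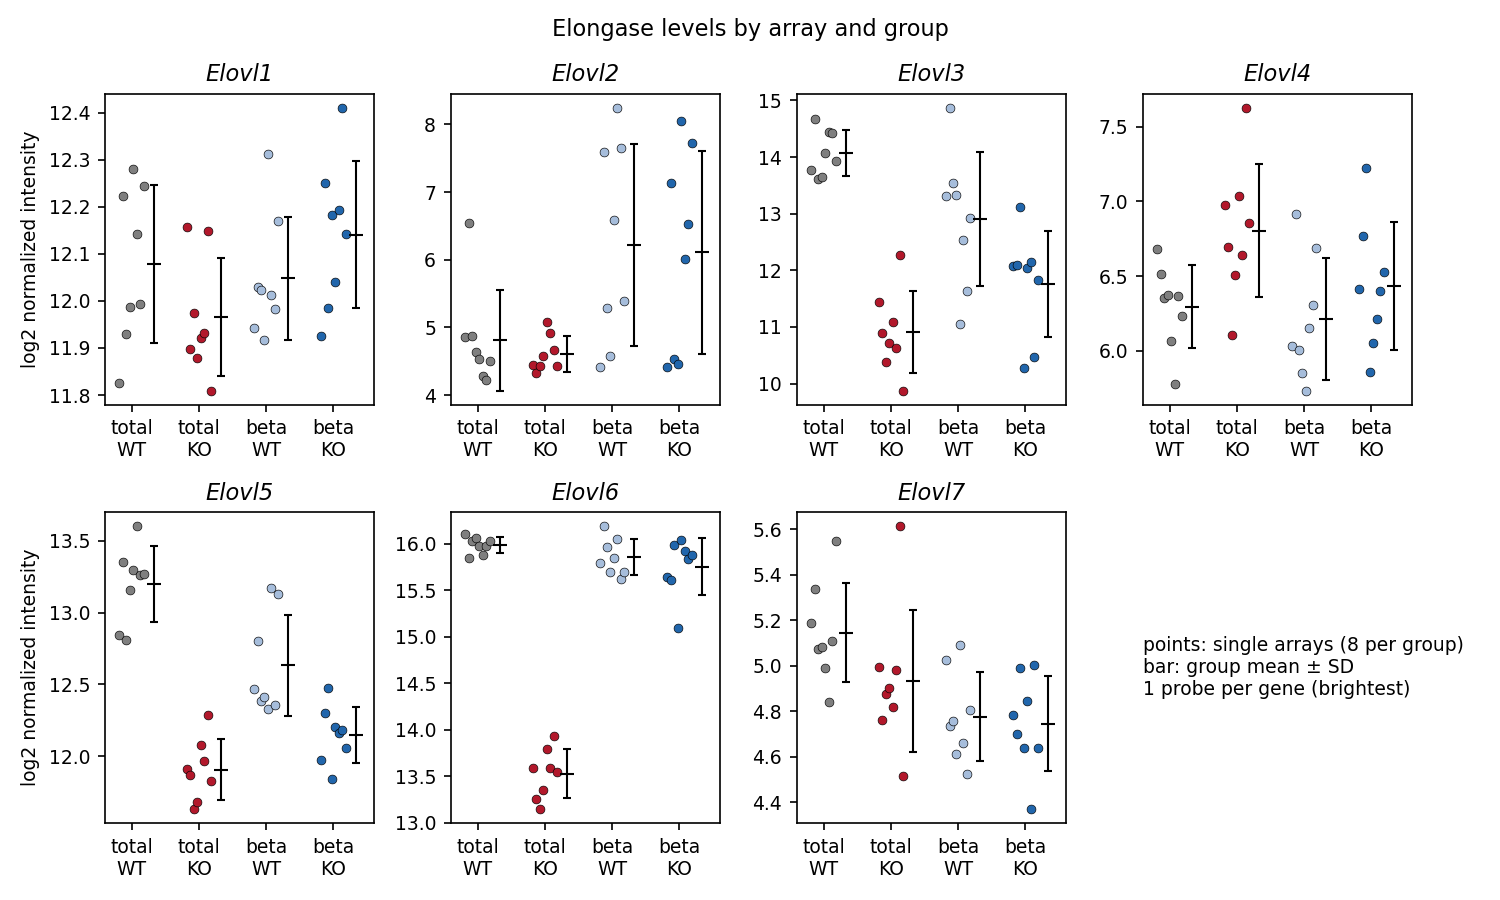
Log2 normalized intensity of each elongase on single arrays (points, 8 per group), with the group mean and SD, each panel on its own y axis. Elovl6 on the total ChREBP KO arrays sits between 13.15 and 13.94, while the other 3 groups lie between 15.09 and 16.19.

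Elovl4, the elongase of very long chains, was the only one of the 7 called higher. It ran from 5.78 to 6.68 in the total-line WT arrays and from 6.10 to 7.63 in total ChREBP KO, and the groups overlapped with 7 of 8 KO arrays above the WT mean. The difference was 0.51 ± 0.19 (adjusted p = 0.0273). The call was lost without KO replicate 7, the highest array (0.39, adjusted p = 0.0771), without WT replicate 6 (0.44, adjusted p = 0.0661) and without WT replicate 5 (0.48, adjusted p = 0.0505). In ChREBPβ KO the difference was 0.22 ± 0.19 (adjusted p = 0.697, 95% interval -0.16 to 0.61), and the KO effects were not shown to differ (-0.29 ± 0.27, adjusted p = 0.484).

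Elovl1, whose product lengthens saturated chains for sphingolipids, had the narrowest intervals. Its brighter probe stayed within 11.81 and 12.41 over all 32 arrays. The difference was -0.11 in total ChREBP KO (adjusted p = 0.22, 95% interval -0.26 to 0.04) and 0.09 in ChREBPβ KO (adjusted p = 0.669, 95% interval -0.06 to 0.24). The dimmer probe gave -0.03 and 0.07, neither called. These intervals exclude changes of the size seen for Elovl3, Elovl5 and Elovl6 in total ChREBP KO.

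Elovl7 was near background. It was well above background on 8 total-line WT arrays, 6 total ChREBP KO arrays and 4 arrays of each ChREBPβ-line group. Its level ran from 4.84 to 5.55 in the total-line WT arrays and from 4.51 to 5.61 in total ChREBP KO, with a difference of -0.21 (adjusted p = 0.138, 95% interval -0.45 to 0.02). It was called at -0.31 (adjusted p = 0.0121) once KO replicate 7 was left out. In ChREBPβ KO the difference was -0.03 (adjusted p = 0.962).

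Elovl2, an elongase of long polyunsaturated chains that liver expresses strongly, was well above background on 15 of 32 arrays, namely 3 and 1 of the total-line WT and KO arrays and 6 and 5 of those of the ChREBPβ line. Its range was 4.41 to 8.25 in the ChREBPβ-line WT arrays and 4.42 to 8.05 in ChREBPβ KO, and 4.22 to 6.54 and 4.32 to 5.07 in the total-line groups. The differences were -0.11 in ChREBPβ KO (adjusted p = 0.972, 95% interval -1.20 to 0.97) and -0.20 in total ChREBP KO (adjusted p = 0.797, 95% interval -1.28 to 0.89). These intervals rest on a spread shared by all groups, and the total-line arrays varied less. With the groups of each line fitted alone, the interval was -0.72 to 0.32 in total ChREBP KO and -1.53 to 1.31 in ChREBPβ KO, so a decrease of 1 on the log2 scale was not detectable in the ChREBPβ line.

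**Figure D2:**
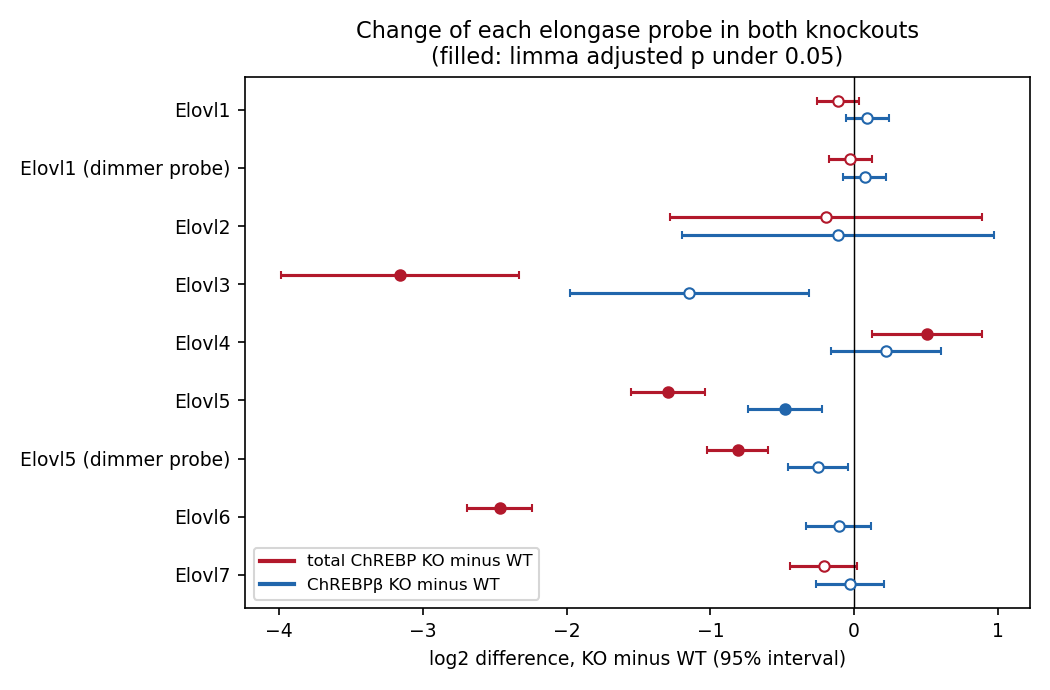
Log2 difference, KO minus WT, of each of the 9 elongase probes with its 95% interval, for total ChREBP KO and ChREBPβ KO. Filled points passed limma's test, 5 probes in total ChREBP KO (Elovl3, Elovl4, Elovl6 and both Elovl5 probes) and 1 in ChREBPβ KO (the brighter Elovl5 probe).

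The 4 groups had the same order of means for Elovl6, Elovl5 and Elovl3, with total-line WT highest and total ChREBP KO lowest. For Elovl6 the total-line WT, ChREBPβ-line WT and ChREBPβ KO groups followed each other without a difference between neighbours (adjusted p = 0.367 and 0.776), and total ChREBP KO was 2.23 below the nearest of them (adjusted p = 5.94e-17). For Elovl5 the order was total-line WT, ChREBPβ-line WT, ChREBPβ KO and total ChREBP KO, and the last pair did not differ beyond their spread (0.24, adjusted p = 0.114). Elovl3 had the same order, in which only the first step, between the WT groups, passed the test (1.17, adjusted p = 0.0217), while the steps of 1.15 and 0.84 did not (adjusted p = 0.144 and 0.0849). For Elovl1, Elovl4 and Elovl7 no neighbours differed, but groups further apart did. ChREBPβ KO was above total ChREBP KO for the brighter Elovl1 probe (0.18, adjusted p = 0.0454). ChREBPβ-line WT was below total ChREBP KO for Elovl4 (-0.60, adjusted p = 0.00835) and below total-line WT for Elovl7 (-0.37, adjusted p = 0.0108). For Elovl2, ChREBPβ KO was above its neighbour, total-line WT (1.30, adjusted p = 0.0476). The differences of Elovl2 and Elovl7 between the lines are not independent of the filter on dim probes, as described below.

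The WT groups of the lines carry no deletion and still differed for 4 of the 7 genes, against 38.9% of all genes. Of these, Elovl2 was the 1 called higher in the ChREBPβ line, against 24.8% of all genes, and 3 were called lower, against 14.1%. Elovl2 passed the filter on dim probes only through the ChREBPβ-line WT group, with 6 arrays well above background. Elovl7 passed only through the total-line groups, with 8 WT and 6 KO arrays, against 4 in each ChREBPβ-line group. Each was kept through the WT group in which it was higher, so the calls of Elovl2 and Elovl7 are not independent of the filter. Relative to the total-line WT group, the WT group of the ChREBPβ line was lower for Elovl3 (-1.17, adjusted p = 0.0217), Elovl5 (-0.57, adjusted p = 0.000599) and Elovl7 (-0.37, adjusted p = 0.0108) and higher for Elovl2 (1.41, adjusted p = 0.0343). Elovl6 differed by -0.13 (adjusted p = 0.367). The Elovl3 call was lost without ChREBPβ-line WT replicate 7 (-0.99, adjusted p = 0.0547) or 5 (-0.91, adjusted p = 0.0617). With the muscle and liver marker means of each array as covariates, 1 of these 4 calls was left, Elovl5 at -0.63 (adjusted p = 0.0399). Under all planned settings the Elovl3 difference stayed between -1.37 and -0.96. The muscle marker means of the total-line and ChREBPβ-line WT arrays did not overlap, at 12.6 to 16.4 and 5.66 to 12.2. The covariate fit therefore cannot separate line from muscle signal, and a call lost in it does not show a smaller difference. In that fit the called KO differences were -2.43 for Elovl6, -3.19 for Elovl3, -1.28 for Elovl5 and 0.55 for Elovl4 in total ChREBP KO and -0.49 for Elovl5 in ChREBPβ KO. Elovl2, which was not called, went from -0.20 to 0.24 in total ChREBP KO (adjusted p = 0.234). The line and whatever else differed between its mice cannot be told apart in this comparison.

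Elovl2 moved with the liver markers. The mean of 8 liver markers ran from 6.51 to 11.7 in the total-line WT arrays, from 6.33 to 9.50 in total ChREBP KO, from 6.62 to 13.6 in the ChREBPβ-line WT arrays and from 6.48 to 13.2 in ChREBPβ KO. Albumin, the main plasma protein made by hepatocytes, spanned 5.26 to 15.4 within the ChREBPβ-line WT group alone. Over the 32 arrays, after the group mean was taken off, Elovl2 was most like Cfi (Pearson r = 0.991), F10 (r = 0.991) and Proz (r = 0.990), which encode plasma proteins of complement and coagulation, out of 17977 genes searched. These points share the array and its liver marker signal. With the covariates the difference of Elovl2 between the WT groups was 0.39 (adjusted p = 0.332), and the call was also lost when any 1 of 8 arrays was left out, namely ChREBPβ-line WT replicates 2, 5, 6 and 7 and total-line WT replicates 5, 6, 7 and 8, at 1.12 to 1.37 (adjusted p = 0.0519 to 0.0878). The part of liver RNA in the Elovl2 level beyond this fit was not tested.

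**Figure D3:**
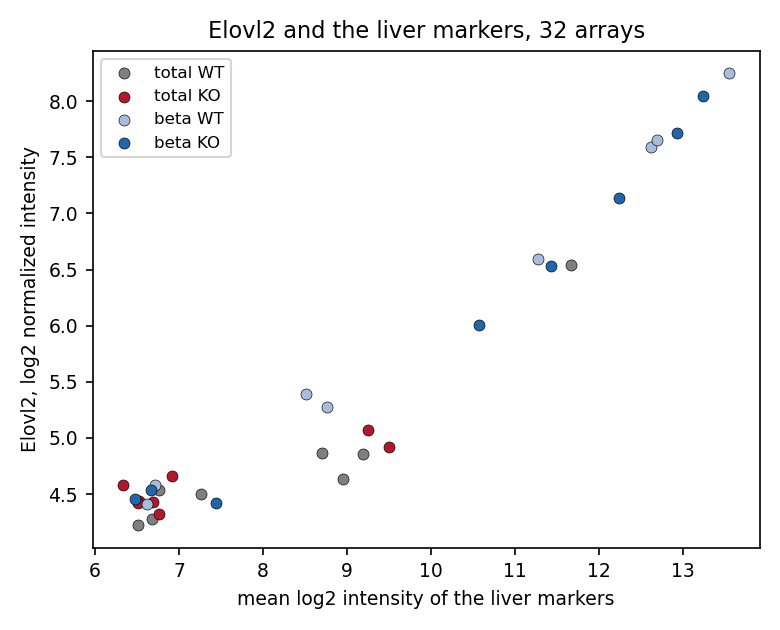
Elovl2 (y axis, log2 normalized intensity) against the mean log2 intensity of 8 liver markers (x axis) on each of the 32 arrays, coloured by group. Arrays high in liver markers are high in Elovl2 in both ChREBPβ-line groups, and 1 total-line WT array at 6.54 lies with them.

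Arrays were washed in 4 batches, and each batch held all 4 groups. The decreases of total ChREBP KO were seen in every batch, with -2.80, -2.12, -2.48 and -2.20 for Elovl6 in batches 1 to 4, -2.96, -3.28, -3.85 and -2.34 for Elovl3, and -1.26, -1.25, -1.16 and -1.34 for Elovl5. The ChREBPβ KO differences varied more from batch to batch. For Elovl3 they were -3.70, -0.79, -0.19 and -0.03, and for Elovl5 -0.90, -0.03, -0.21 and -0.71. Batches held 1 to 3 arrays of a group, and the single WT array of the ChREBPβ line in batch 1 was the highest of its group for Elovl3 at 14.87. For Elovl4 in total ChREBP KO the batches gave 0.07, 0.75, 0.22 and 1.30. By scan day, with 4 arrays of each group on each of 2 days, Elovl3 in ChREBPβ KO differed by -1.88 and -0.42, and Elovl5 by -0.37 and -0.60.

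**Figure D4:**
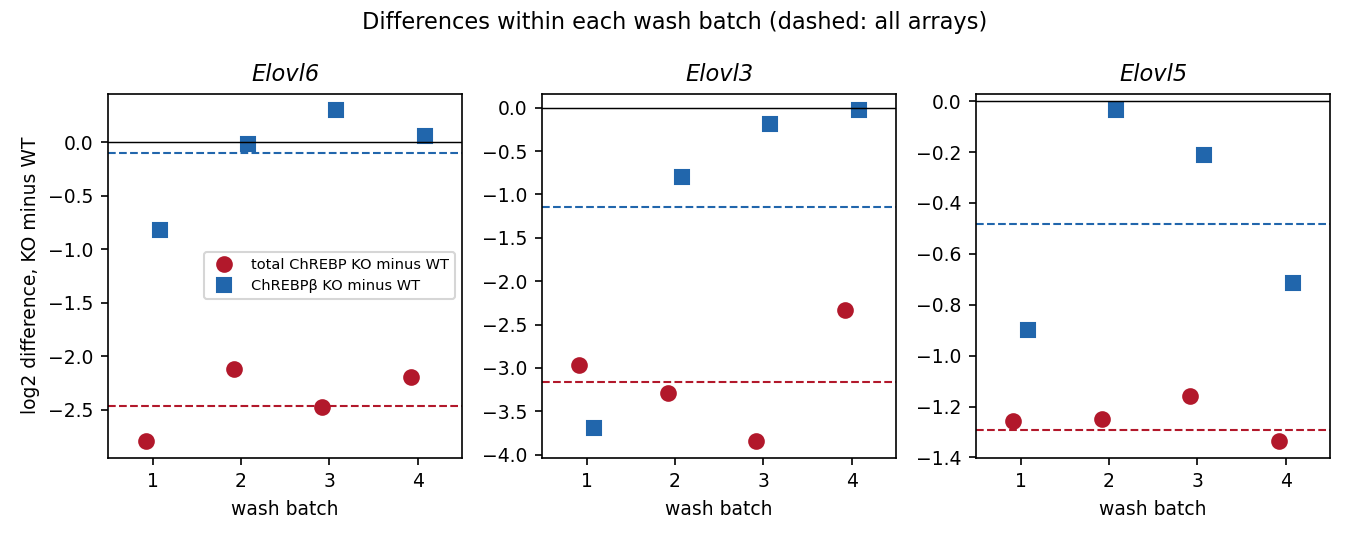
Log2 difference, KO minus WT, within each of the 4 wash batches for Elovl6, Elovl3 and Elovl5, with the difference over all arrays as a dashed line. Every total ChREBP KO point is below 0, while the ChREBPβ KO points of Elovl3 run from -3.70 to -0.03.

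Elovl3 is also expressed in sebaceous glands, so skin markers were read beside it. The mean of 4 skin and sebaceous markers lay between 7.92 and 8.13 in total ChREBP KO and between 7.90 and 9.79 in its WT group, where 1 array was high in the keratin Krt14 at 9.37. Single markers went opposite ways, with Krt79 at 11.2 to 11.7 in the total-line WT arrays and 13.0 to 13.5 in total ChREBP KO, and Mc5r at 8.23 to 10.13 and 7.10 to 7.72. The paper lists Krt79 as higher and Mc5r as lower in brown fat of both KO models. In ChREBPβ KO 2 of the 4 markers were called, 1 higher and 1 lower, against 2.7% of all genes. The part of skin cells in the Elovl3 values was not tested. Of 6 brown adipocyte markers, 3 were called higher and 1 lower in total ChREBP KO, against 22.9% and 21.1% of all genes. The thermogenic genes Dio2 and Ppargc1a had means of 13.0 and 12.5 in WT and 15.2 and 13.7 in KO. Prdm16 was at 10.3 in WT and 9.97 in KO, and Ucp1, near the top of the normalized scale, at 18.5 and 18.4. All 3 macrophage markers were called lower there, against 21.1% of all genes, with a median difference of -0.59. Of 3 general adipocyte markers, 2 were called higher, against 22.9%. The part of these cells in the elongase values was not tested.

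The remaining enzymes of the elongation cycle fell in part with the elongases in total ChREBP KO. Each round needs a 3-ketoacyl-CoA reductase (Hsd17b12), a dehydratase (Hacd1 to Hacd4) and a trans-2-enoyl-CoA reductase (Tecr). Of the 7 genes of this list, 5 were called lower and none higher, against 21.1% and 22.9% of all genes, with a list median of -0.56. Tecr fell by 0.75 (adjusted p = 2.79e-10), Hacd4 by 0.59 (adjusted p = 5.72e-07), Hacd2 by 0.59 (adjusted p = 0.000185), Hsd17b12 by 0.56 (adjusted p = 3.57e-07) and Hacd3 by 0.19 (adjusted p = 0.00841). Tecr, for example, ran from 13.65 to 14.22 in WT and from 12.92 to 13.31 in KO, without overlap. Hacd1, the dehydratase of muscle, differed by 0.16 (adjusted p = 0.0912), and Tecrl, a relative of Tecr, by 0.19 (adjusted p = 0.537). Between the WT groups Hacd1 was lower in the ChREBPβ line (-0.44, adjusted p = 3.64e-05), as the muscle markers were, and none of the ChREBPβ-line arrays had Tecrl well above background.

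In ChREBPβ KO none of these 7 genes was called by limma, against 2.7% of all genes. Of them, 3 had an unadjusted p under 0.05, and the list median was -0.18. Tecr differed by -0.19 (adjusted p = 0.173), with all 8 KO arrays below the WT mean and 5 within the WT range. Hsd17b12 differed by -0.21 (adjusted p = 0.146), with 7 below the WT mean and 4 within the WT range. The KO effects differed for 4 genes of the list, against 25.2% of all genes. Tecr (0.56, adjusted p = 9.35e-05), Hacd4 (0.65, adjusted p = 9.41e-05) and Hsd17b12 (0.34, adjusted p = 0.0178) had the larger decrease in total ChREBP KO, while Hacd1 differed the other way (-0.37, adjusted p = 0.0126).

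Enzymes that supply malonyl-CoA, the 2-carbon donor of elongation, and de novo fatty acids showed larger changes. In total ChREBP KO, 5 of the 6 genes of this list were called lower, against 21.1% of all genes, with a median of -1.62. The remaining gene, Mlycd, encodes malonyl-CoA decarboxylase, which breaks malonyl-CoA down, and was not called (0.13, adjusted p = 0.172). ATP citrate lyase Acly fell by 3.58 (adjusted p = 3.33e-25), acetyl-CoA carboxylase Acaca fell by 3.49 (adjusted p = 5.44e-26) and fatty acid synthase Fasn fell by 1.81 (adjusted p = 5.97e-17), and Acacb and Acss2 were also called. In the other 3 groups only 1 or 2 probes of an array were brighter than Fasn, which is the top of the quantile scale and caps its values. Scaled to the 75th percentile instead, a choice made after seeing the data, Fasn differed by -1.92 in total ChREBP KO and by -0.01 in ChREBPβ KO (adjusted p = 0.987). In ChREBPβ KO 0 of 6 were called and 2 had an unadjusted p under 0.05. Desaturases place double bonds in the chains before or after elongation. Of 8, 4 were called in total ChREBP KO, all lower, against 44.1% of all genes called and 21.1% called lower. Scd3 was down to 15.3% of the WT level (-2.70, adjusted p = 6.17e-14), Scd1 to 29.2% (-1.78, adjusted p = 2.15e-12) and Scd2 to 35.3% (-1.50, adjusted p = 6.23e-11). In ChREBPβ KO 0 of 8 were called and 3 had an unadjusted p under 0.05. Of these, Scd3 differed by -0.45 (adjusted p = 0.215) and Scd1 by -0.29 (adjusted p = 0.341). Fads3 went the other way, by 0.59 (adjusted p = 0.162), with all 8 KO arrays above the WT mean and all 8 within the WT range. Its KO effects differed by 0.89 (adjusted p = 0.0315).

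Ceramide synthases use the very long chains made by elongases. Of 5 measured, only Cers3 was called in total ChREBP KO, lower by 0.48 (adjusted p = 0.000727), against 21.1% of all genes called lower. In ChREBPβ KO 0 were called and 2 had an unadjusted p under 0.05. These were Cers3, lower at -0.38 (adjusted p = 0.0649), and Cers2, higher at 0.14 (adjusted p = 0.308). Cers3 was near background, well above it on 8 arrays of each WT group, 2 of total ChREBP KO and 5 of ChREBPβ KO. It was kept by the filter only through the WT groups, where it was higher, so its differences are not independent of the filter. Among 7 genes of transcription factors known to act on lipid synthesis and elongases, 0 were called in ChREBPβ KO and 0 had an unadjusted p under 0.05. In total ChREBP KO 5 of them were called, against 44.1% of all genes. Ppara, the receptor for fatty acids that drives their oxidation, rose by 1.51 (adjusted p = 9.28e-15). Srebf1, the sterol- and insulin-responsive activator of lipogenic genes, fell by 1.05 (adjusted p = 6.27e-10), and Mlx, the obligate partner of ChREBP, fell by 0.70 (adjusted p = 3.23e-07).

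**Figure D5:**
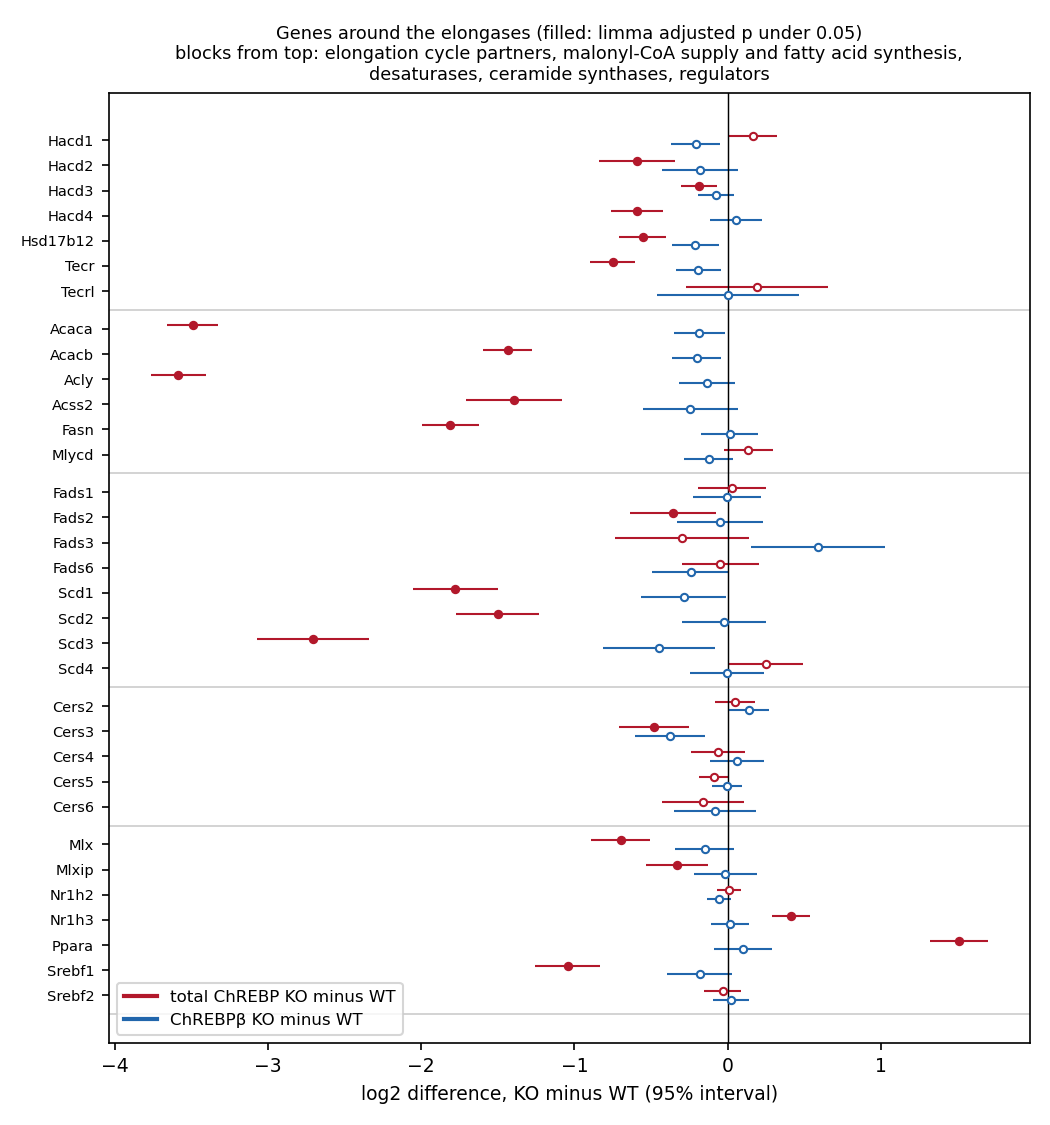
Log2 difference, KO minus WT, with its 95% interval, for the measured genes of 5 lists around the elongases, in total ChREBP KO and ChREBPβ KO. Filled points passed limma's test, 20 in total ChREBP KO and 0 in ChREBPβ KO, against 44.1% and 2.7% of all genes. Acly was lowest at -3.58 and Ppara highest at 1.51.

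Promoter windows from RefSeq, assembly GRCm38.p6, were used for 6 of the 7 elongases, and that of Elovl3 was not analysed here. The 250 bases before the start of the 2 genes that fell and have a window are shown 5′ to 3′, with capitals marking an E-box core (CACGTG) and CCAAT boxes (CCAAT, read as ATTGG on the printed strand).
Elovl6, plus strand, chr3:129532136-129532385: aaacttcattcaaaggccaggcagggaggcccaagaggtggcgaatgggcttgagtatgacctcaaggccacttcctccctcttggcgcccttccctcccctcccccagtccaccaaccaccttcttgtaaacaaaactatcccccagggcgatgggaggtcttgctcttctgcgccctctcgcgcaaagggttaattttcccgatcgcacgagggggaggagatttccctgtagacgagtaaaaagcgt
Elovl5, plus strand, chr9:77917115-77917364: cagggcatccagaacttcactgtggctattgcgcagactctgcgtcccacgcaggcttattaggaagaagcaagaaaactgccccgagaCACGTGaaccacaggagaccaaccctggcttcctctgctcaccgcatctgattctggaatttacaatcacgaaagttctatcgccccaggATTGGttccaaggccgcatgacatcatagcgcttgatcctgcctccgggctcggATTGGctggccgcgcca
In all, 4 motifs were searched on both strands of windows of 300 bases around the start. The E-box is the core that ChREBP and Mlx bind as a spaced pair, the carbohydrate response element (ChoRE), and CCAAT is bound by NF-Y. CACGTG was in 7.15% of all 32851 windows, CCAAT in 37.4%, the sterol regulatory element, searched as its classical sequence, in 0.0913% and the ChoRE consensus in 0.119%. The Elovl5 window held 1 E-box at -161 and 2 CCAAT boxes at -71 and -17, counted from the base before the start as -1. Elovl4 held 1 of each after its start, at 6 and 26. Elovl1 held 1 CCAAT box. The windows of Elovl6, Elovl2 and Elovl7 held none of the 4, which says only that these letters are not in those windows.

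The genes most like each elongase were searched among 17977 genes, as a description. By the distance between the centred means of the 4 groups, Elovl6 was nearest to Fam78b, Hsd11b1 and Me1, at 0.08 to 0.12 on the log2 scale. Me1 encodes malic enzyme, a source of NADPH for fatty acid synthesis. Elovl3 was nearest to Hmmr, Oxtr and Pdzk1ip1 (0.21 to 0.33) and Elovl5 to Rassf2, Krt7 and Fras1 (0.05 to 0.07). Within groups, after the group mean was taken off, Elovl3 followed Zbtb32 (r = 0.885), Gde1 (0.876) and Ppp1r1a (0.871) over the 32 arrays, and Elovl6 followed Ppdpf (0.800), Dtl (0.784) and Tsn (0.784). Elovl5 followed Fam210b (0.851) and, under the names of the array design, Skp1a (0.844) and March8 (0.834). These arrays share their batch and tissue make-up within a group.

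Within groups the elongases themselves were only loosely related, with r from -0.13 to 0.55 over the 21 pairs and the 32 arrays. Elovl3, Elovl4, Elovl5 and Elovl6 gave 0.41 to 0.55 among each other. The pairs of Elovl2 with Elovl3 and Elovl7 were at -0.05 and -0.04.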

How the data were processed

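Brown adipose tissue RNA was measured on 32 single-colour arrays (SurePrint G3 Mouse), 8 in each of 4 groups taken from the labels. The authors deposited Feature Extraction 10.10.1.1 files, which give a median pixel intensity per spot with no scaling across arrays, and a table of log2 values, which per their methods had passed a filter, quantile normalization and a median over repeated probes. That table served as an alternative. The same steps were applied here to the scanner intensities. A spot entered if its flags gave it as found, as positive and as well above background on 26 or more of 32 arrays, or on 6 or more of a group. Of 59305 spots, 39985 entered, giving 37306 probes, and the mean absolute difference from the deposited log2 values was 0.00298. Quantile normalization assumes a like distribution on every array, and arrays have no read depth, so their number and the signal over background limit the precision.

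Each probe was fitted with limma 3.58.1 in R 4.3.3 (lmFit, eBayes), using 4 group means, every array and no covariates. Tests were two-sided and adjusted over all 37306 probes of a contrast. A gene is represented by its kept probe with the highest mean, and all kept Elovl probes are named, with every elongation cycle partner and up to 3 called genes of each other list per KO contrast. Motifs were searched in RefSeq windows of GRCm38.p6, and figures were drawn with matplotlib. The fit was tested on simulated data. Members and lists were chosen with earlier results of these data known. Alternatives covered the signal, the normalization, the filter on dim probes, wash batch, slide, scan day, replicate number, tissue marker covariates, array weights, the groups in the fit, averaging of a gene's probes and each array left out in turn. Cers1 was not measured under that name, and Cd79a had no kept probe.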

Additional observations from a re-analysis of the deposited data

Results flagged for a closer look

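The KO effects of total ChREBP deficiency and ChREBPβ deficiency differed, by limma's test of the difference itself, for 3 elongases on 4 probes. The decrease was larger in total ChREBP KO by 2.36 for Elovl6 (adjusted p = 3.72e-13), by 2.01 for Elovl3 (adjusted p = 0.00965), by 0.81 for the brighter Elovl5 probe (adjusted p = 0.001) and by 0.56 for its dimmer probe (adjusted p = 0.00471). Between the lines, the KO groups differed for Elovl6 (2.23, adjusted p = 5.94e-17). They were not shown to differ for Elovl3 (0.84, adjusted p = 0.0849) or the Elovl5 probes (0.24 and 0.02, adjusted p = 0.114 and 0.894). The WT groups differed for Elovl3 (-1.17, adjusted p = 0.0217) and both Elovl5 probes (-0.57 and -0.54, adjusted p = 0.000599 and 9.87e-05). The effect differences of Elovl3 and Elovl5 include that gap.

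Single arrays stood apart from their group of 8 in 4 of 36 groups checked with Dixon's ratio, where chance marks about 1 in 20. ChREBPβ KO replicate 4 was low for Elovl6 at 15.09, while the other 7 lay between 15.61 and 16.04. Total-line WT replicate 2 was high for Elovl2 at 6.54, against 4.22 to 4.86 for the rest. Total ChREBP KO replicate 7 was high for Elovl7 at 5.61, against 4.51 to 4.99. ChREBPβ KO replicate 3 was high for the dimmer Elovl5 probe at 6.03, against 5.57 to 5.76.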

How the results depend on the processing

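In total ChREBP KO 4 elongases were called under each of the 15 planned settings and 3 to 4 with an array left out. The difference between the KO effects was called for 3 to 4 genes under the planned settings, with Elovl1 added when wash batch was a block (0.25, adjusted p = 0.0381), and for 3 with any array left out. The count in ChREBPβ KO was 1, and 0 with wash batch as a block, with slide as a fixed block, with its own groups only and with each gene's probes averaged, and 0 to 2 with an array left out. Between the WT groups the count of 4 became 2 with probes well above background on all arrays, where Elovl2 and Elovl7 have no value, 1 with marker covariates, and 2 to 4 with an array left out. Elovl2 there was also lost with the processed signal scaled to its 75th percentile (2.51, adjusted p = 0.0667), without the filter (1.36, adjusted p = 0.0579), with slide as a fixed block (1.14, adjusted p = 0.145) and with array weights (1.12, adjusted p = 0.0845), and Elovl7 with 75th percentile scaling (-0.30, adjusted p = 0.0878) and the covariates (-0.29, adjusted p = 0.346). Of 1301 gene values under all settings, 1267 kept their side of the threshold, 31 lost the call and 3 gained it. The sign changed in 33, none of them called. The causes were not tested.

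Groups share replicate numbers, but neither line met the rule for pairing, every correlation above 0.1. Deviations of same-numbered arrays correlated at -0.304 to 0.0801 (median 0.046, 0 of 8 above 0.1) in the total line and -0.196 to 0.532 (median 0.246, 6 of 8 above 0.1) in the ChREBPβ line, and 0 and 1 of 8 arrays correlated best with their own number. With the replicate number as a block the counts were 4 in total ChREBP KO, 1 in ChREBPβ KO, 3 for the difference and 4 between the WT groups, and no elongase call changed. Elovl2 and Elovl7 are limited by signal near background.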
